A study of Homo sapiens with 6 samples.

Results

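The E2F transcription factors E2F1 to E2F8 and the pocket proteins RB1 and RBL1 were examined at the RNA level in a human papillary thyroid carcinoma line with and without added RRM2. These 10 genes were taken from the gene table by name, as all rows whose symbol was E2F1 to E2F8, RB1 or RBL1, out of 58735 rows in all. The study sequenced mRNA of 2 groups with 3 libraries each, and the design text calls each group a biological triplicate without saying more on how the cultures were kept apart. P-values therefore measure the spread between these libraries. The first group was the uninfected wild strain of TPC-1, an established cell line from a papillary thyroid carcinoma. The second group, RRM2-OE-TPC-1, was the same line infected with a lentivirus (vector LV18) in which a CMV promoter drives full-length RRM2 beside a puromycin resistance cassette, and then selected with puromycin. RRM2 encodes the small subunit of ribonucleotide reductase, the enzyme that makes deoxyribonucleotides for DNA synthesis. No library carried an empty vector or was grown under puromycin without the insert, so infection, selection and RRM2 cannot be told apart, and whether RRM2-OE-TPC-1 was a pool of infected cells or 1 clone was not stated.

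E2F proteins bind the promoters of genes needed for DNA replication and cell division. E2F1, E2F2 and E2F3 are known as activators, E2F4 and E2F5 as factors that repress together with pocket proteins in resting cells and early G1, E2F6 as a repressor that works with Polycomb proteins and without a pocket protein, and E2F7 and E2F8 as repressors that bind DNA without a DP partner. The pocket proteins RB1, RBL1 and RBL2 hold E2F factors inactive until cyclin-dependent kinases phosphorylate them, and several E2F genes are themselves E2F targets. In mice, heterozygous loss of Rb1 leads to tumours of the pituitary and of the C cells of the thyroid.

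RRM2 itself served as the check of the labels. Its level was 9.17, 9.05 and 8.52 FPKM (fragments scaled to gene length and sequencing depth) in the TPC-1 libraries. In the RRM2-OE-TPC-1 libraries it was 50.4, 47.5 and 47.2 FPKM, endogenous and lentiviral copies counted together. The scaling used a single length per gene, whichever forms were expressed. Orders, shares and ratios between genes therefore rest on that length. For RRM2 the groups compare as follows. The log2 fold change of RRM2 was 2.43 (SE 0.0442, adjusted p = 1.11e-08), and no library went against its group, although the genotype labels of RRM2-OE-TPC-1 replicates 2 and 3 name RRM3 and RRM4 where the titles name RRM2. The libraries held 14317091 to 17084067 reads on genes, of which 4.29 to 5.89% were mitochondrial. RRM2-OE-TPC-1 replicate 1 stood apart from its group: its read counts differed from those of replicates 2 and 3 with a chi-square per gene of 5.02 and 5.68, against 1.81 between replicates 2 and 3 and 2.92 to 3.08 within TPC-1. Of the thyroid markers, PAX8 and FOXE1 were detected, NKX2-1 was at 0 in every library and TG, TSHR and SLC5A5 had group means of 0.0841 FPKM or less, so the thyroid label rested on the former pair. Summed markers differed between groups, thyroid markers at 71.5 to 75.3 FPKM in TPC-1 against 59.7 to 63.1 in RRM2-OE-TPC-1 and epithelial markers at 42.9 to 47.1 against 88.4 to 90.8. The epithelial sum was nearly all KRT18, at 41.2 against 85.2 FPKM. KRT8 rose from 2.56 to 3.48 FPKM, while KRT7 (mean 1.18 against 1.01 FPKM) did not pass the test. The other epithelial markers, CDH1, EPCAM and KRT19, were too low to test. CDH1 had a mean of 0.0786 FPKM in TPC-1 against 0.0508 FPKM in RRM2-OE-TPC-1. The EPCAM mean went from 0.0158 to 0.0830 FPKM and the KRT19 mean from 0.00849 to 0.0972 FPKM. Leukocyte, endothelial, fibroblast and C cell markers summed to 1.05 FPKM or less per list in every library. Endothelial markers summed to 0.873 to 1.05 FPKM in TPC-1 against 0.0667 to 0.115 in RRM2-OE-TPC-1, leukocyte markers to 0.349 to 0.410 against 0.107 to 0.183, fibroblast markers to 0.820 to 0.965 against 0.409 to 0.577 and C cell markers to 0.0192 to 0.0580 against 0 to 0.0565, with 2 of 4 leukocyte, 2 of 4 fibroblast, 1 of 2 C cell and none of 3 endothelial markers at 0 throughout. The endothelial sum in TPC-1 was mostly PECAM1 (mean 0.924 against 0.0588 FPKM in RRM2-OE-TPC-1). Likewise the leukocyte sum was mostly CD14 (0.386 against 0.146 FPKM) and the fibroblast sum COL1A1 (0.816 against 0.501 FPKM). VWF (0.00577 against 0.0325 FPKM) and PTPRC (0 against 0.00440 FPKM) went the other way. The part of these differences in the results that follow was not tested.

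Promoter sequence is shown because members that moved together could be compared there for the site E2F factors are known to bind. RefSeq windows of 250 bases before to 50 after a start site (GRCh38.p14) were at hand for 8 of the 10 genes in 9 windows. E2F5 and E2F8 had no entry, and the single RB1 window lay inside the gene. The words TTTCCCGC, TTTCCCGG, TTTCGCGC, TTTCGCGG, TTTGCCGC, TTTGCCGG, TTTGGCGC and TTTGGCGG were searched on both strands, overlaps allowed. They were found at least 1 time in 5 of the 9 windows, against 2174 of 35116 windows over all genes (6.19%). All 5 of those windows, of E2F1, E2F2, E2F3, E2F6 and RBL1, held 2 or more matches, which 133 of all windows did (0.379%). The following runs give 120 bases before to 30 after the start, with the matches in capitals (in E2F3 also the word TTTGAA, found in 15.2% of all windows).
E2F1, chr20:33686356-33686505, minus strand: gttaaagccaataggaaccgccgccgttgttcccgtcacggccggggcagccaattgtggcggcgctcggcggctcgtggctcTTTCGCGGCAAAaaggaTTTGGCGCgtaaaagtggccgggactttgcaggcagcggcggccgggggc
E2F2, chr1:23531204-23531353, minus strand: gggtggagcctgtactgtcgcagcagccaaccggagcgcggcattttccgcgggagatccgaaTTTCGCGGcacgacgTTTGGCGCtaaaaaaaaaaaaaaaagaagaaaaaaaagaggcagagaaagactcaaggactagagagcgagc
E2F3, chr6:20401759-20401908, plus strand: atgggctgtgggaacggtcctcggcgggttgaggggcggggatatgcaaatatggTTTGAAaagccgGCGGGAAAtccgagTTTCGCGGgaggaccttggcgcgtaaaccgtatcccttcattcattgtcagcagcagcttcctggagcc
RBL1, chr20:37095968-37096117, minus strand: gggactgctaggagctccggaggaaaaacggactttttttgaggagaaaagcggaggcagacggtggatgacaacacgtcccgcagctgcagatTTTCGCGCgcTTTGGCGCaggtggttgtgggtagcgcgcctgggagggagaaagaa
E2F4, chr16:67192035-67192184, plus strand: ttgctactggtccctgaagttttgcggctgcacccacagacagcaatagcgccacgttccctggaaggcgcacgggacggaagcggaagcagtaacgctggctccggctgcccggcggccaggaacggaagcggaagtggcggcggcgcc
E2F7, chr12:77065540-77065689, minus strand: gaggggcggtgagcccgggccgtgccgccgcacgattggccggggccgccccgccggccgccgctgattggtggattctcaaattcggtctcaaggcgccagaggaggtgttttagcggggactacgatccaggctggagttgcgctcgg
The E2F1 run holds 3 matches whose first bases lie at -37, -33 and -20 from the start, the middle match on the other strand and overlapping the first. E2F2 has matches at -57 and -42, E2F3 at -53 and -39, and RBL1 at -26 and -16. The E2F6 window, not printed, has matches at -183 and -78, and E2F6 did not pass the test given below. E2F4 and E2F7 are shown because their windows hold none of these words, and neither do the second E2F3 window and the RB1 window. A match is a description of the letters and not a site, and a window without one says only that these letters are not in it. Log2 fold changes, given below, were 0.96 (E2F1), 0.86 (RBL1), 0.32 (E2F2), 0.18 (E2F6) and 0.15 (E2F3) for genes with matches. For genes whose windows held none, they were 0.88 (E2F7) and 0.37 (E2F4). RB1, at 0.16, cannot be placed in either set, because its only window lay inside the gene and its 5' end was not searched. A relation between matches and changes was not tested.

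The 10 transcripts were present in every library, with 110 to 1565 reads each, and all 10 passed the filter on low values. Counting error alone spans 5.40 to 19.2% of the value (95% Poisson interval, to either side) at the library with the fewest reads of each gene. With limma's test on log2(FPKM + 0.1) over 13621 genes, 8 of the 10 rose in RRM2-OE-TPC-1 at an adjusted p of 0.05 or less (E2F1, E2F2, E2F3, E2F4, E2F7, E2F8, RB1 and RBL1), where 34.9% of the genes tested rose. E2F5 alone of the 10 fell, where 32.7% of the genes tested fell, and E2F6 did not pass the test. The median log2 fold change of the 10 genes was 0.35, beside 0.01 for all genes tested. None passed the stricter rule, which besides the adjusted p asks that the log2 fold change reach 1 in either direction and which 11.5% of the genes tested met. By limma 9 of the 10 had an unadjusted p under 0.05, and by limma-voom on reads recovered from the FPKM values the count past both thresholds was also 0. The groups did not overlap for any of the 10 genes, and 72.2% of all genes tested had groups without overlap. Leaving out RRM2-OE-TPC-1 replicate 1 gave again 8 higher and 1 lower, with a median of 0.38. The number that rose was 6 without RRM2-OE-TPC-1 replicate 2, without TPC-1 replicate 1 or without TPC-1 replicate 3. It was 7 without RRM2-OE-TPC-1 replicate 3. With no filter on low values, or with values rescaled to library totals, it was 6.

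**Figure D1:**
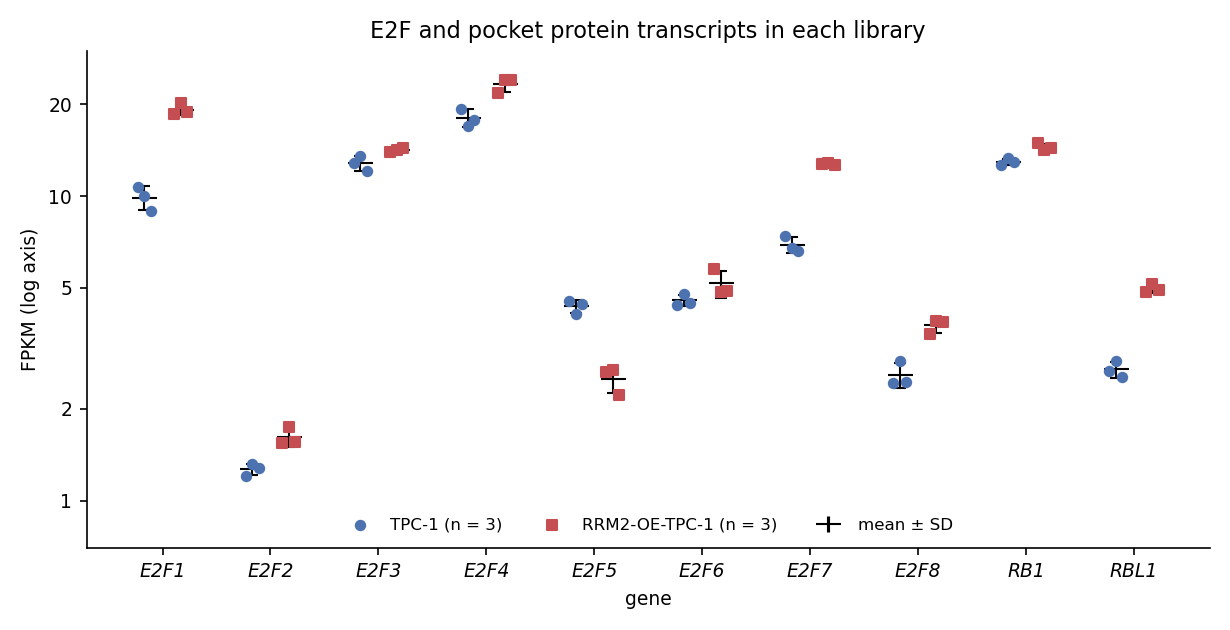
FPKM on a log axis for E2F1 to E2F8, RB1 and RBL1, with 1 point per library (circles TPC-1, squares RRM2-OE-TPC-1) and bars for the mean ± SD of 3 libraries. E2F1, E2F7 and RBL1 are separated by the widest gaps upward, and E2F5 is the gene whose RRM2-OE-TPC-1 points (2.22 to 2.69 FPKM) lie below the TPC-1 points (4.10 to 4.53 FPKM).

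**Figure D2:**
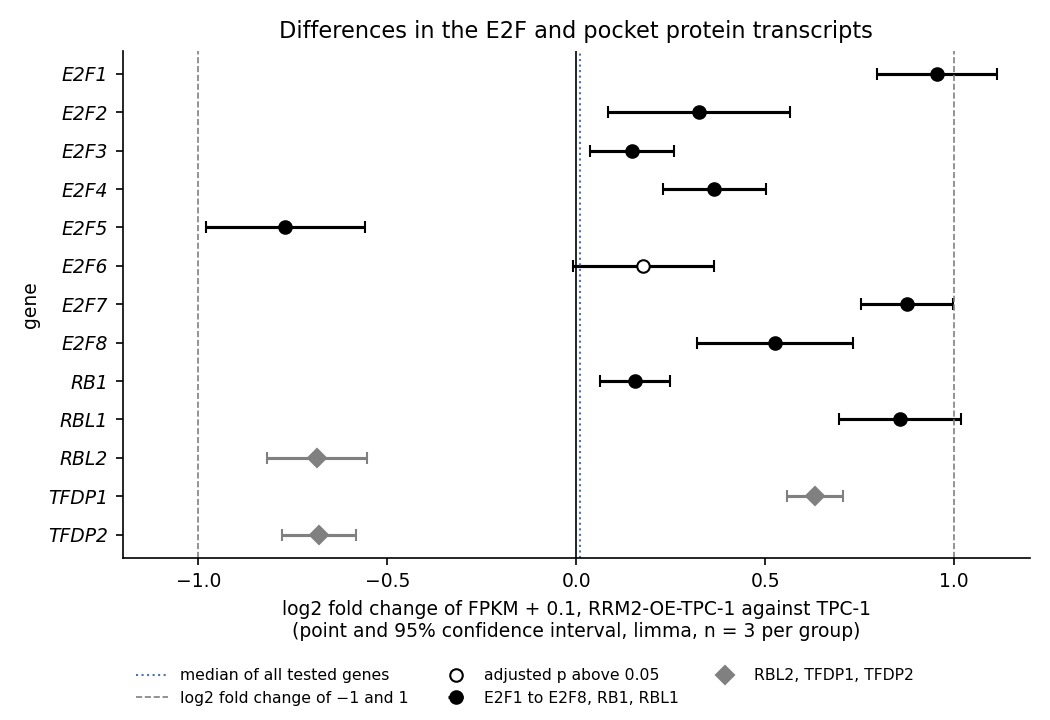
Log2 fold change of FPKM + 0.1 in RRM2-OE-TPC-1 against TPC-1 with its 95% confidence interval, for the 10 genes (circles) and for RBL2, TFDP1 and TFDP2 (diamonds); filled symbols have an adjusted p of 0.05 or less. E2F1 at 0.96, E2F7 at 0.88 and RBL1 at 0.86 lie furthest to the right and E2F5 at -0.77 furthest to the left.

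Among the levels in TPC-1, E2F4 was the highest at 18.1 FPKM, followed by RB1 at 13.0 and E2F3 at 12.8, which overlapped each other. Then came E2F1 at 9.89, E2F7 at 6.92, the overlapping pair E2F6 at 4.54 and E2F5 at 4.35, the overlapping pair RBL1 at 2.70 and E2F8 at 2.59, and E2F2 at 1.27 FPKM. In RRM2-OE-TPC-1, E2F4 was again first at 23.3 FPKM, but E2F1 stood second at 19.2, ahead of RB1 at 14.5 and E2F3 at 14.2, which again overlapped, and E2F7 at 12.8. E2F6 at 5.16 and RBL1 at 4.96 FPKM overlapped as well. E2F5 stood ninth at 2.52 FPKM, below E2F8 at 3.76, and E2F2 was again last at 1.61 FPKM. Neighbours in either order not named as overlapping were separated in all 3 libraries of the group.

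E2F1 (ENSG00000101412, chr20:33675683-33686404, GRCh38, minus strand), the activator best known for driving S phase entry and, when in excess, apoptosis, had 10.7, 10.03 and 8.92 FPKM in TPC-1 and 18.7, 20.2 and 18.9 FPKM in RRM2-OE-TPC-1. Each RRM2-OE-TPC-1 library was well above each TPC-1 library. The mean rose from 9.89 ± 0.908 to 19.2 ± 0.805 FPKM (SD, n = 3), a log2 fold change of 0.96 (SE 0.0689, 95% confidence interval 0.80 to 1.11, adjusted p = 7.66e-06). It ranged from 0.88 to 1.02 when each library was left out in turn, passing 1 only without TPC-1 replicate 1. In RNA from whole cultures, more cells that hold a transcript and more transcript per cell cannot be told apart, here and for the other genes.

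E2F2 (ENSG00000007968, chr1:23506430-23531220, minus strand), an activator close in sequence to E2F1, was the lowest of the 10 transcripts, at 1.21, 1.32 and 1.28 FPKM in TPC-1 and 1.55, 1.74 and 1.55 FPKM in RRM2-OE-TPC-1. The groups were close but did not overlap. The log2 fold change was 0.32 (SE 0.104, 95% confidence interval 0.09 to 0.56, adjusted p = 0.0230). The call was lost when RRM2-OE-TPC-1 replicate 2 (adjusted p = 0.0839), TPC-1 replicate 1 (adjusted p = 0.0637) or TPC-1 replicate 3 (adjusted p = 0.0515) was left out, and with no filter on low values (adjusted p = 0.0652).

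E2F3 (ENSG00000112242, chr6:20401906-20493715, plus strand), an activator that is also made in a shorter form from an internal promoter, had 12.8, 13.5 and 12.1 FPKM in TPC-1 and 13.99, 14.2 and 14.4 FPKM in RRM2-OE-TPC-1. The gene total does not separate the forms. The RRM2-OE-TPC-1 libraries lay just above the highest TPC-1 library, with a log2 fold change of 0.15 (SE 0.0484, 95% confidence interval 0.04 to 0.26, adjusted p = 0.0260). This was the smallest rise that passed. With values rescaled to library totals it was 0.09 (adjusted p = 0.129), and the call was also lost with no filter (adjusted p = 0.0561) and without 4 of the 6 libraries in turn (RRM2-OE-TPC-1 replicate 2 or 3, TPC-1 replicate 1 or 3, adjusted p = 0.0578 to 0.0880).

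The 3 activators therefore moved by unequal amounts, and the make-up of their summed RNA differed between groups. Their sum was 24.7, 24.9 and 22.3 FPKM in TPC-1 and 34.2, 36.1 and 34.8 FPKM in RRM2-OE-TPC-1. E2F1 made up 43.3, 40.3 and 40.0% of this sum in TPC-1 and 54.6, 55.8 and 54.2% in RRM2-OE-TPC-1, while E2F3 fell from a mean of 53.5% to 40.5%. E2F3 was thus the most abundant activator in every TPC-1 library and E2F1 in every RRM2-OE-TPC-1 library. These sums, shares and ratios are descriptions within each library and carry no test.

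**Figure D3:**
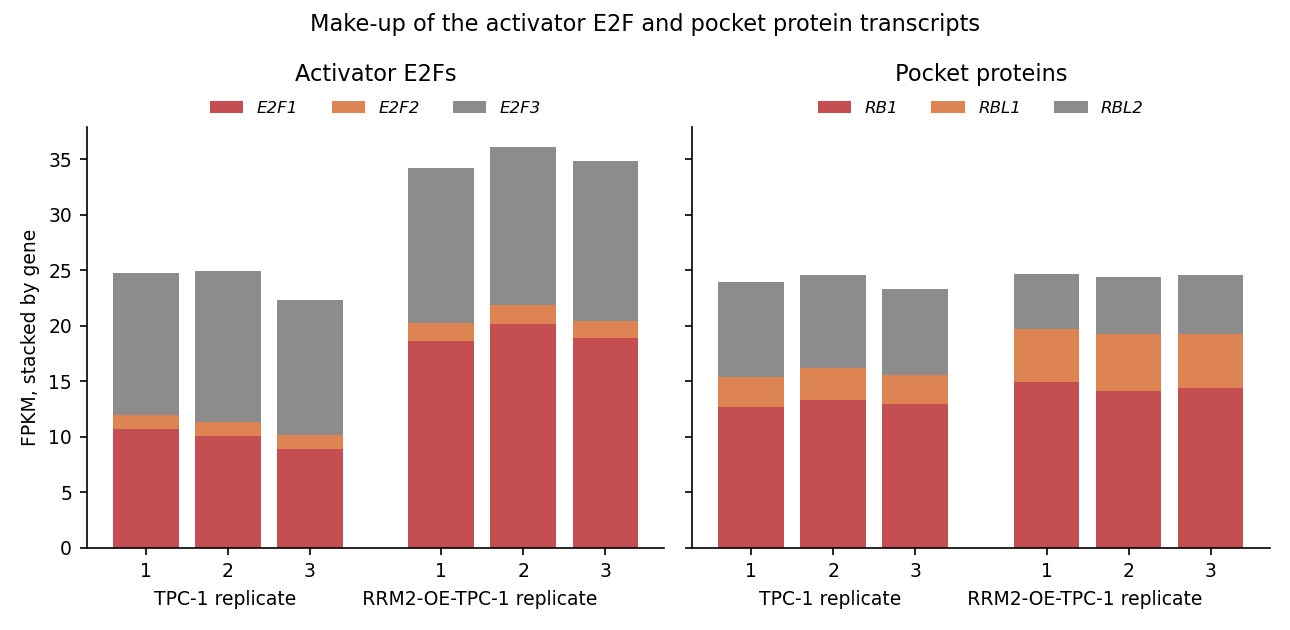
FPKM of the activators E2F1, E2F2 and E2F3 (left) and of the pocket proteins RB1, RBL1 and RBL2 (right), stacked for each of the 6 libraries. The activator stacks are 22.3 to 24.9 FPKM high in TPC-1 and 34.2 to 36.1 in RRM2-OE-TPC-1, with a wider E2F1 part; the pocket protein stacks are of like height (23.4 to 24.6 and 24.4 to 24.7 FPKM), with a wider RBL1 part and a narrower RBL2 part in RRM2-OE-TPC-1.

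E2F4 (ENSG00000205250, chr16:67192169-67198918, plus strand), the main E2F partner of RBL1 and RBL2, had the highest level of the family, at 19.4, 17.0 and 17.8 FPKM in TPC-1 and 21.8, 24.0 and 24.1 FPKM in RRM2-OE-TPC-1. Every RRM2-OE-TPC-1 library was above every TPC-1 library. Its log2 fold change was 0.37 (SE 0.0592, 95% confidence interval 0.23 to 0.50, adjusted p = 7.64e-04), and 0.32 to 0.42 when each library was left out in turn.

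E2F5 (ENSG00000133740, chr8:85177225-85217158, plus strand), which shares the repressor role of E2F4, had 4.53, 4.10 and 4.41 FPKM in TPC-1 and 2.64, 2.69 and 2.22 FPKM in RRM2-OE-TPC-1. Each RRM2-OE-TPC-1 library was well below each TPC-1 library, the only such order among the 10 genes. It fell from 4.35 ± 0.220 to 2.52 ± 0.255 FPKM (SD, n = 3), a log2 fold change of -0.77 (SE 0.0907, 95% confidence interval -0.98 to -0.56, adjusted p = 1.23e-04), and remained between -0.82 and -0.69 when each library was left out. Its share of the summed E2F4 and E2F5 RNA was 18.9, 19.4 and 19.8% in TPC-1 and 10.8, 10.1 and 8.45% in RRM2-OE-TPC-1. Of its exon bases, 969 (16.3% of its length) overlap C8orf59 on the opposite strand, at 10.7 and 12.4 FPKM in the 2 groups. Whether counting used the strand was not stated, so the E2F5 level is uncertain to that extent.

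E2F6 (ENSG00000169016, chr2:11444375-11466177, minus strand), the repressor that acts with Polycomb proteins, had 4.41, 4.77 and 4.46 FPKM in TPC-1 and 5.77, 4.85 and 4.88 FPKM in RRM2-OE-TPC-1. The highest value belonged to RRM2-OE-TPC-1 replicate 1, the library that stood apart, and the other two lay close to the TPC-1 range. The log2 fold change was 0.18 (SE 0.0807, 95% confidence interval -0.01 to 0.36, adjusted p = 0.0830), and without that library it was 0.10 (adjusted p = 0.250). A difference was not detectable by this test, and the interval allows a rise of up to 0.36. The listed pseudogene copies of E2F3, E2F4 and E2F6 held at most 3 reads in any library.

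E2F7 (ENSG00000165891, chr12:77021247-77065580, minus strand), a repressor that E2F1 is known to switch on and that restrains E2F1 in turn, had 7.40, 6.76 and 6.59 FPKM in TPC-1 and 12.8, 12.9 and 12.6 FPKM in RRM2-OE-TPC-1. The latter libraries were tightly grouped and far above the former. The mean rose from 6.92 ± 0.424 to 12.8 ± 0.114 FPKM (SD, n = 3), a log2 fold change of 0.88 (SE 0.0528, 95% confidence interval 0.75 to 1.00, adjusted p = 2.91e-06), and 0.84 to 0.92 with each library left out.

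E2F8 (ENSG00000129173, chr11:19224063-19241620, minus strand), the relative and binding partner of E2F7, had 2.43, 2.87 and 2.46 FPKM in TPC-1 and 3.53, 3.89 and 3.87 FPKM in RRM2-OE-TPC-1. All RRM2-OE-TPC-1 libraries were higher. This gave a log2 fold change of 0.53 (SE 0.0889, 95% confidence interval 0.32 to 0.73, adjusted p = 9.67e-04). The ratio of E2F7 to E2F8 was 3.04, 2.35 and 2.68 in TPC-1 and 3.62, 3.31 and 3.27 in RRM2-OE-TPC-1. Against this pair of repressors, the summed activators had a ratio of 2.52, 2.58 and 2.47 in TPC-1 and 2.10, 2.15 and 2.11 in RRM2-OE-TPC-1, so activator RNA was higher but formed a smaller multiple of E2F7 and E2F8 RNA.

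RB1 (ENSG00000139687, chr13:48303726-48599436, plus strand), the retinoblastoma protein that binds the activators, had 12.7, 13.3 and 13.0 FPKM in TPC-1 and 14.9, 14.2 and 14.4 FPKM in RRM2-OE-TPC-1. The groups were separate but near each other. The log2 fold change was 0.16 (SE 0.0400, 95% confidence interval 0.06 to 0.25, adjusted p = 0.00874), and with values rescaled to library totals it was 0.10 and no longer passed (adjusted p = 0.0760). The ratio of E2F1 to RB1 RNA was 0.845, 0.754 and 0.688 in TPC-1 and 1.25, 1.42 and 1.31 in RRM2-OE-TPC-1, below 1 in the former and above 1 in the latter.

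RBL1 (ENSG00000080839, chr20:36996349-37095995, minus strand), the pocket protein that is itself a known E2F target and that binds E2F4 in cycling cells, had 2.67, 2.88 and 2.55 FPKM in TPC-1 and 4.85, 5.13 and 4.91 FPKM in RRM2-OE-TPC-1. The groups were far apart. The mean rose from 2.70 ± 0.165 to 4.96 ± 0.147 FPKM (SD, n = 3), a log2 fold change of 0.86 (SE 0.0703, 95% confidence interval 0.69 to 1.02, adjusted p = 1.54e-05), and 0.82 to 0.90 with each library left out.

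RBL2, the remaining pocket protein and the member of that family known for resting cells, went the other way, with 8.59, 8.40 and 7.83 FPKM in TPC-1 and 4.92, 5.10 and 5.29 FPKM in RRM2-OE-TPC-1. Every RRM2-OE-TPC-1 library was lower, and the log2 fold change was -0.69 (SE 0.0572, adjusted p = 1.68e-05). However, 610 exon bases of RBL2 overlap AKTIP on the opposite strand. AKTIP was also lower, at 4.49 FPKM in TPC-1 and 3.00 FPKM in RRM2-OE-TPC-1. The RBL2 level is uncertain in the way given for E2F5. The ratio of RBL1 to RBL2 was 0.311, 0.342 and 0.326 in TPC-1 and 0.984, 1.01 and 0.929 in RRM2-OE-TPC-1. Summed RNA of RB1, RBL1 and RBL2 was 24.0 ± 0.608 FPKM in TPC-1 and 24.5 ± 0.144 FPKM in RRM2-OE-TPC-1 (SD, n = 3), and the groups overlapped. Within this sum RBL1 went from 11.3 to 20.2%, RB1 from 54.2 to 59.0% and RBL2 from 34.5 to 20.8%.

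The DP proteins that pair with E2F1 to E2F6 to bind DNA moved in both directions. TFDP1, the main partner, rose from 43.0 ± 0.830 to 66.7 ± 1.32 FPKM (log2 fold change 0.63, adjusted p = 1.28e-06), whereas TFDP2 fell from 12.6 ± 0.171 to 7.84 ± 0.222 FPKM (-0.68, adjusted p = 3.38e-06). TFDP3 was listed at 0 in every library. In the list of RBL2, the MuvB core and its partners, which together form the DREAM repressor and the later activator complexes, 5 of 7 tested genes rose, 1 fell and 1 did not pass (median log2 fold change 0.32), beside 34.9% that rose and 32.7% that fell of all genes tested. The activating partners MYBL2 (52.1 to 101 FPKM, 0.95) and FOXM1 (15.4 to 22.8 FPKM, 0.56) rose, and the core genes LIN9 (0.30), LIN52 (0.54) and LIN54 (0.32) rose. RBBP4 had a log2 fold change of 0.09 (adjusted p = 0.0986) and LIN37 was too low to test. Without RRM2-OE-TPC-1 replicate 1 the number that rose was 3.

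For proteins that repress together with E2F6 or with pocket proteins, the counts in each direction stand beside 34.9% that rose and 32.7% that fell of all genes tested. Of the 10 genes of the E2F6 complex 5 rose, 3 fell and 2 did not pass (median log2 fold change 0.09). Higher were WDR5 (0.55), PCGF6 (0.46), L3MBTL2 (0.44), CBX3 (0.37) and MAX (0.30), and lower were the ubiquitin ligase genes RING1 (-0.44) and RNF2 (-0.20) and their partner RYBP (-0.60). MGA, the scaffold that pairs with MAX, had -0.13 (adjusted p = 0.111) and YAF2 had -0.14 (adjusted p = 0.305). Of 15 corepressor genes 6 rose, 6 fell and 3 did not pass (median -0.08). Over the alternative settings the number that rose lay between 5 and 7 and the number that fell between 4 and 7. The largest rises were those of the histone methyltransferase SUV39H1 (2.22 to 5.36 FPKM, log2 fold change 1.24), the histone chaperone RBBP7 (0.73) and the DNA methyltransferase DNMT1 (0.64). ARID4A (-0.60), SIN3A (-0.37) and ARID4B (-0.24), members of the SIN3 deacetylase complexes, fell most.

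The kinases that inactivate RB1 and their inhibitors made up a list of 15, of which 8 of 14 tested genes rose, 4 fell and 2 did not pass (median log2 fold change 0.28). Of all genes tested 34.9% rose and 32.7% fell, so the number that fell is near the background. CDKN1A, an inhibitor and known p53 target, rose most, from 41.2 ± 1.33 to 208 ± 4.45 FPKM (2.33, adjusted p = 9.81e-09). The cyclin genes CCNE2 (1.87) and CCNE1 (1.45) followed, with 37.0% of the length of CCNE2 overlapping INTS8 on the opposite strand. The inhibitors CDKN1B (-0.73), CDKN2B (-0.67) and CDKN2A (-0.49) fell most. CCND2 was listed at 0 in every library. Genes that mark E2F and related proteins for degradation or guard them from it all rose, 7 of 7 (median 0.42), where 34.9% of all genes tested rose: SKP2 (5.52 to 15.7 FPKM, 1.49), CCNF, whose protein is known to target E2F factors (4.73 to 10.1 FPKM, 1.08), FBXO5 (0.61), CKS1B (0.42), SKP1 (0.40), CUL1 (0.18) and FZR1 (0.18).

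Known G1/S target genes of E2F rose in 32 of 32 tested genes out of 33, with a median log2 fold change of 0.85, a range of 0.21 to 1.89 and 13 genes past both thresholds, beside a median of 0.01 over all genes tested, of which 34.9% rose and 11.5% passed both thresholds in either direction. ORC1, a subunit of the origin recognition complex, rose from 2.57 ± 0.175 to 9.78 ± 1.14 FPKM (1.89, adjusted p = 1.08e-06). CCNE2 followed at 1.87, and PCNA, the sliding clamp of DNA polymerase, rose from 34.1 ± 1.01 to 122 ± 1.94 FPKM (1.83, adjusted p = 1.14e-08). Several genes of this list, of the kinase list and of the turnover list (among them CCND1, CDKN1A, PCNA, ORC1, CCNE1, CCNE2 and SKP2) were picked by the study on these same libraries, so their direction is not independent evidence. Known apoptotic targets of E2F1 gave 6 that rose and 1 that fell of 7 tested (median 0.40), where 34.9% of all genes tested rose and 32.7% fell. The number that rose was 4 with values rescaled to library totals, with no filter on low values, and also without RRM2-OE-TPC-1 replicate 1 or without TPC-1 replicate 3. Among them BBC3 (0.90), APAF1 (0.46), PMAIP1 (0.40) and MAP3K5 (0.18) rose, BCL2L11, which encodes BIM, fell from 3.30 ± 0.0677 to 1.48 ± 0.0923 FPKM (-1.10, adjusted p = 1.01e-05), and TP73 was listed at 0. Among the genes named here, for example, FOXM1 (with ITFG2), RBBP4 (with SYNC), CBX3 (with HNRNPA2B1), RBBP7 (with TXLNG), ARID4B (with GGPS1), SKP1 (with TCF7), FZR1 (with MFSD12), APAF1 (with ANKS1B), CDKN2A (with CDKN2B-AS1) and BCL2L11 (with MIR4435-2HG) also share exon bases with a gene on the opposite strand, and their levels are uncertain in the way given for E2F5. With values rescaled to library totals MAP3K5 no longer passed (adjusted p = 0.122).

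**Figure D4:**
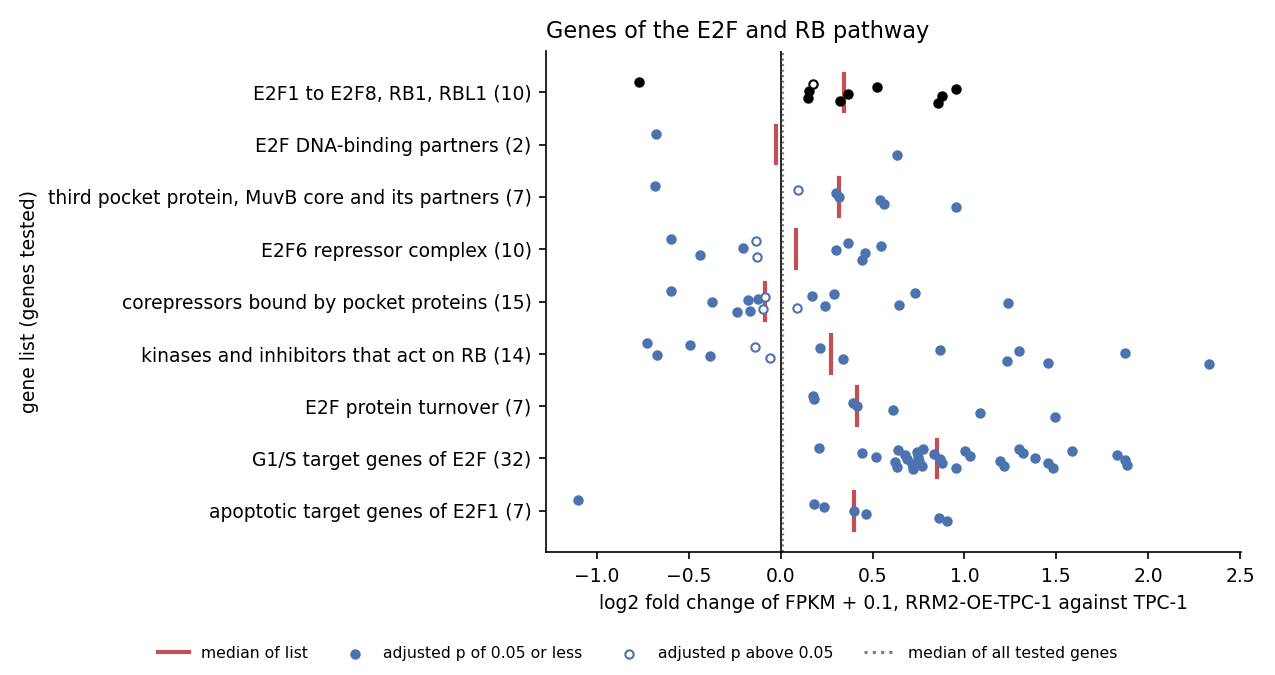
Log2 fold change of FPKM + 0.1 in RRM2-OE-TPC-1 against TPC-1 for each tested gene (points, filled where the adjusted p is 0.05 or less), by list with its number of tested genes, with the list median as a red bar and the median of all tested genes dotted. The G1/S target genes all lie to the right of 0, with a median of 0.85 against 0.35 for the 10 E2F and pocket protein genes, while the E2F6 complex and the corepressors lie on both sides of 0.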

How the data were processed

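Wild strain TPC-1 cells and RRM2-OE-TPC-1 cells were profiled by RNA sequencing, with 3 libraries per group. The methods describe poly(A) selection and a directional kit, whereas the labels describe removal of ribosomal RNA and digestion with RNase R. Which was used bears on what the levels cover. Per the submitters' processing notes the authors aligned reads with HISAT2 (2.0.5) to GRCh38.p14, counted them per gene with featureCounts (1.5.0) and tested them with DESeq2 (1.20.0); strand use in counting is not given in the sources used here. The deposited values are FPKM per gene and library, with a gene length. All 58735 identifiers had the positions of GENCODE 29.

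Every FPKM value gave a whole number of reads (tolerance 0.01), with 14317091 to 17084067 reads on genes per library. The authors' depth divisor followed median-of-ratios size factors (ratio 0.999 to 1.001). Replicate counts all differed by more than counting error, so no library was counted as a second sequencing of another. Separate preparations from the same culture can differ in this way too, so the check cannot show that the cultures were separate.

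Genes with 0.5 FPKM and 10 reads or more in at least 3 libraries (13621) were tested on log2(FPKM + 0.1) with limma (3.58.1, R 4.3.3; lmFit, eBayes with trend, two-sided), with Benjamini-Hochberg adjustment over all of them. The script was tested on simulated data. Fold changes are on this scale and understate those of low genes. An exact permutation test of 3 against 3 libraries cannot give a p below 0.1, so none was used.

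The 10 genes and the lists were chosen with earlier results of these data known. Genes named are these 10, RRM2, every gene of lists of up to 10 and, of longer lists, the 3 largest changes in each direction past the threshold. Opposite-strand overlaps are given for examples chosen after their values were seen, not for every named gene. Alternatives were other pseudocounts, filters, scalings, limma-voom on recovered reads, a replicate block and each library left out. RefSeq windows came from GRCh38.p14. A few listed genes that this rule would name are not reported here by name.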

Additional observations from a re-analysis of the deposited data

How the results depend on the processing

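Of 140 repeats for the 10 genes (14 alternatives each), 129 kept the direction and the side of the threshold, 11 kept the direction but no longer passed, and none was reversed; the 11 were those of E2F2, E2F3 and RB1. The median log2 fold change of the 10 genes was 0.28 with a pseudocount of 1 and 0.29 with values rescaled to library totals, a scaling that moved the median of all genes from 0.01 to -0.05. When libraries were dropped in turn, 0 to 1 of the 10 genes passed both thresholds, 1 being E2F1 without TPC-1 replicate 1. With 1 as pseudocount 716 genes of the whole table passed both thresholds in place of 1560. The ratio of summed RB1, RBL1 and RBL2 RNA, RRM2-OE-TPC-1 over TPC-1, was 1.02 as deposited and 0.984 with library totals. The number of MuvB list genes that rose lay between 3 and 5, and 3 was found without RRM2-OE-TPC-1 replicate 1. The log2 fold change of CDKN1C, never past the threshold, lay between -0.18 and 0.11 and changed sign without RRM2-OE-TPC-1 replicate 3. Of 1288 repeats for 92 listed genes, 31 no longer passed, 6 newly passed and 1 was reversed. Replicate numbers did not pair the libraries (same-number correlations of deviations -0.0105, -0.00602 and -0.0550), and with a replicate block 8 of the 10 genes rose, 1 fell and the median remained 0.35. At the depth of E2F2, the lowest of the 10, counting error limits what can be detected.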

Other observations

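Neighbouring genes gave values to set beside those of the E2F genes. Within 2 Mb of E2F1 on chromosome 20, 50 tested genes had a median log2 fold change of 0.08, and 1 of them was above E2F1 at 0.96. Within 2 Mb of RBL1, on the same chromosome, the median over 49 genes was 0.25 with 6 above RBL1 at 0.86, and the median of the 381 tested genes of chromosome 20 was 0.03. E2F7 had 13 tested neighbours with a median of 0.16 and 2 above it. E2F8 had 16 with a median of 0.31 and 5 above it. E2F5, which fell, had 9 with a median of 0.19 and 6 above it. E2F4 had 61 with a median of -0.05 and 15 above it, and RB1 had 21 with a median of 0.05 and 10 above it. E2F6 had 21 with a median of -0.40 and 6 above it. RRM2 itself (2.43, lentiviral copies counted in) lies in that window and is among those above E2F6. E2F2 had 38 with a median of -0.11 and 5 above it, and E2F3 had 3 with a median of -0.17 and 0 above it.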
